A study of Mus musculus with 10 samples.

Results

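In 3248 short autosomal tiles of the mouse genome, sperm was unmethylated and few cytosines were measured, and these tiles were followed through the zygote and the blastocyst. A tile is a window of 100 bp, and its level is the percent of its summed read counts that were methylated. The tiles were selected on sperm values: each had 1 to 3 measured cytosine positions over both sperm libraries, at least 10 counts and 20% methylation or less in each of them, and at least 5 counts in each of the 8 embryo libraries. They are called sparse tiles here. They make up 3248 of the 14811 autosomal tiles with 5 or more counts in every embryo library, and 3248 of the 10574 autosomal sperm tiles that met the sperm part of the rule, the others lacking embryo counts. Sperm-unmethylated autosomal tiles with any number of positions came to 20183. Of the 3248 sparse tiles, 1007 were isolated and 2241 were clustered, which means that another tile at 20% or less in both sperm libraries started within 1000 bp.

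The assay was reduced representation bisulfite sequencing (RRBS), run on 5 groups of 2 libraries, which the labels call biological duplicates. Sperm came from wild-type (WT) adult CAST/EiJ males. All embryos came from eggs of superovulated females aged 7 to 10 weeks that were fertilised in vitro with CAST/EiJ sperm, in a cross labelled C57BL/6J x CAST/EiJ. WT zygotes and CKO zygotes were collected 13 h after fertilisation in pools of 40 to 50, and WT blastocysts and CKO blastocysts at 96 h in pools of 4. CKO is the label for embryos whose genotype is given as maternal Tet3 KO. The sources used here name neither the deleted allele nor a Cre line, and they do not say if reads were sorted by parental allele, so an embryo level may stand for either or both parental genomes. Eggs were not analysed here, and methylation already present in the egg cannot be told apart from methylation gained after fertilisation.

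Cytosine methylation in mammals is found mainly at CpG dinucleotides. CpG-rich stretches known as CpG islands are usually unmethylated in germ cells and embryos, while CpG-poor DNA is usually methylated in sperm. After fertilisation the paternal genome loses much of its methylation, in part through oxidation of 5-methylcytosine by Tet3, an enzyme that the egg supplies, and in part by dilution at replication. RRBS cuts DNA with MspI, an enzyme that recognises CCGG, and reads the ends of the fragments. Bisulfite sequencing counts 5-methylcytosine and its first oxidation product, 5-hydroxymethylcytosine, together.

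Depth ran with stage: zygote libraries held 1233982 to 1508297 summed counts and blastocyst libraries 1005492 to 1093843, against 2315949 to 2535229 in sperm. The median count per sparse tile was 24 to 29 in zygote and 18 to 21 in blastocyst libraries, and the part of this in differences between stages was not tested. No pair of libraries held the same data: at most 4.71% of shared positions had identical counts. The median tile and library held 22 counts, in isolated and clustered tiles alike, and 1432 tiles had at least 10 counts in every embryo library. Counts of neighbouring positions often come from the same reads, and there were no molecular identifiers, so a limit or interval on a count covers counting error only. Such a limit takes each count as a separate read, and it is too low where positions share reads. The median count at a tile's deepest position was 11 to 17 in the embryo libraries and 25 to 28 in sperm, which is closer to the number of reads.

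The word sparse describes the measurement more firmly than the sequence. Among the tiles, 921 had 1 measured position, 1169 had 2 and 1158 had 3, and 164 of them (5.05%) held positions next to each other, as the cytosines of both strands of a CpG do. In 1776 tiles (54.7%) the next 100-bp window was itself unmethylated in sperm, and in 464 tiles (14.3%) a sperm-unmethylated tile with 8 or more positions lay within 1000 bp. Whether such tiles are the edges of CpG-rich regions was not tested, because no mm9 genome was used here. By the rule, a tile with no other measured position within 1000 bp is isolated, and 599 of the 1007 isolated tiles (59.5%) were of this kind. For these, isolated means only that nothing else was measured nearby. The median distance from an isolated tile to another sperm-unmethylated tile was 33800 bp, which the rule keeps above 1000 bp. A tile that sperm had methylated at 80% or more lay within 1000 bp of 95 isolated tiles (9.43%) and of 5 clustered tiles (0.223%).

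In sperm, where they were chosen, the tiles had a mean level of 1.69% and 1.71% in replicates 1 and 2, with 2.82% and 2.92% in isolated and 1.18% and 1.17% in clustered tiles. The threshold of 20% fell in a thin tail. The isolated tile chr10:23669101-23669200 lay just inside it, at 20.0% (14 of 70 counts) and 5.36% in the sperm libraries, and embryos had 0% there in 7 libraries and 5.88% in CKO blastocyst replicate 1. Tile chr9:100520101-100520200 lay just outside, at 4.84% and 20.3%, as did chr11:96849601-96849700 at 16.7% and 20.5%. A low tile level can hide a methylated position. In 3204 tiles (98.6%) no single position exceeded 20% over the pooled sperm counts. In 41 tiles the highest position lay between 20% and 50%, and in 3 isolated tiles it was at 50% or more: chr5:130385601-130385700, chr6:98646401-98646500 and chr18:73676101-73676200, of which 2 had a sperm-methylated tile within 1000 bp.

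The sparse tiles were nearly unmethylated in all 4 embryo groups, and the median tile was at 0% in every library. The mean level over the 3248 tiles was 2.99% and 2.78% in the 2 libraries of WT zygotes and 3.48% and 3.44% in those of CKO zygotes. At the blastocyst stage it was 2.50% and 2.22% (WT) and 2.18% and 2.05% (CKO). CKO zygotes were the highest group and CKO blastocysts the lowest, and no pair of neighbouring groups in that order overlapped. Group means for zygotes were 2.89% ± 0.148 (WT; SD, n = 2) and 3.46% ± 0.0282 (CKO), and for blastocysts 2.36% ± 0.199 (WT) and 2.11% ± 0.0876 (CKO). The gap between the 2 blastocyst groups was 0.0411 points, less than the SD of either. Because the tiles were chosen for low sperm values, their rise from sperm to zygote was not tested.

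**Figure D1:**
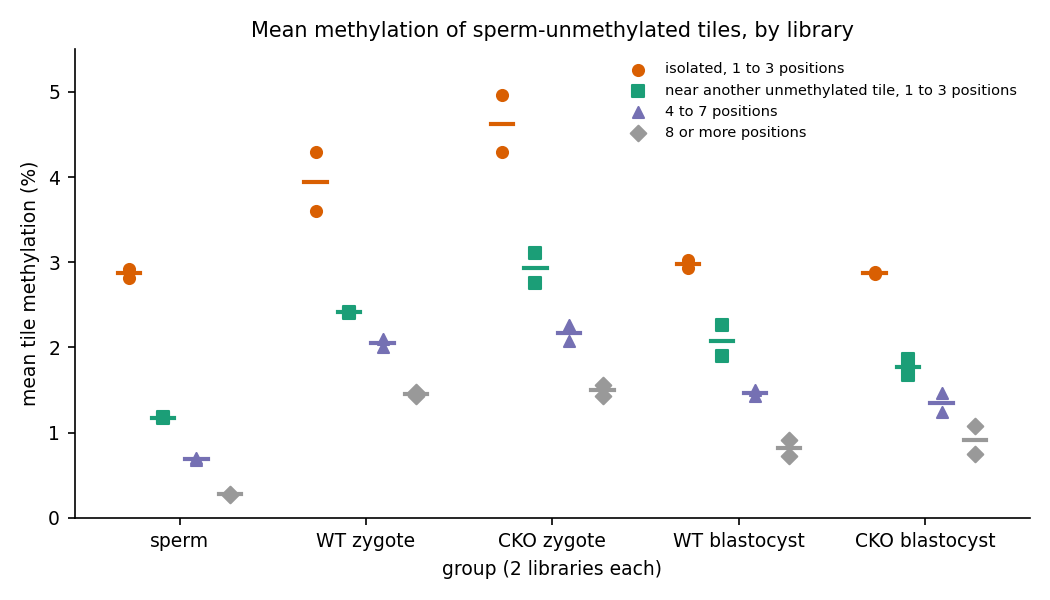
Mean methylation level (%, vertical axis) of isolated and clustered sparse tiles and of tiles with more positions, in each of the 5 groups; each point is 1 library and each bar the mean of 2. Isolated tiles lie above clustered tiles in all 10 libraries, and CKO zygotes hold the highest isolated mean, 4.63%.

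Most tiles had no methylated count at all. The share of tiles at exactly 0% in zygotes was 87.4% ± 0.631 (WT) and 84.8% ± 1.55 (CKO), and in blastocysts 88.9% ± 1.33 (WT) and 89.2% ± 0.914 (CKO), with the SD over 2 libraries. At a median of 22 counts a tile can read 0% with some methylation present, and the deeper sperm libraries had 72.7% ± 2.68 of the tiles at 0%. In all, 1762 tiles (54.2%) were at 0% in all 8 embryo libraries. The share above 20% in zygotes was 5.40% ± 0.327 (WT) and 6.23% ± 0.196 (CKO), and in blastocysts 4.17% ± 0.414 (WT) and 3.63% ± 0.392 (CKO). Low means thus went with a few high tiles among many at 0%.

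Isolated tiles were more methylated than clustered tiles in 8 of 8 embryo libraries. In zygotes their mean was 4.29% and 3.60% (WT) and 4.29% and 4.96% (CKO), and in blastocysts 3.03% and 2.93% (WT) and 2.87% and 2.88% (CKO). Clustered tiles had 2.41% and 2.41%, 3.11% and 2.76%, 2.26% and 1.89%, and 1.86% and 1.68% in the same order. The lowest isolated library, at 2.87%, lay below the highest clustered library, at 3.11%, so the classes separated within a library and not across all of them. The difference was 1.53 ± 0.492 points in WT zygotes and 0.902 ± 0.195 points in WT blastocysts (SD, n = 2). Sperm differed the same way, by 1.64 and 1.75 points. Where both sperm libraries were at 0%, the embryo difference was 0.326 ± 0.565 points in WT zygotes and 0.0679 ± 0.585 points in WT blastocysts, smaller than its SD in both.

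Inside each class the embryo level moved with the sperm level. The 483 isolated tiles at 0% in both sperm libraries had 1.99% ± 0.572 in WT zygotes and 2.11% ± 0.318 in CKO zygotes, and the 1497 such clustered tiles 1.67% ± 0.00661 and 2.04% ± 0.349. Tiles with any methylated sperm count were higher: the 524 isolated ones had 5.74% ± 0.410 and 6.94% ± 0.610, and the 744 clustered ones 3.91% ± 0.0279 and 4.73% ± 0.0570. At the 41 tiles with a sperm position between 20% and 50% the levels were 9.51% ± 3.39 in WT zygotes and 13.8% ± 3.89 in CKO zygotes (SD, n = 2 throughout).

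The tiles farthest from another sperm-unmethylated tile were more often methylated than those next to one. Of the 649 isolated tiles with none within 20000 bp, 7.78% ± 0.11 were above the 20% level in WT zygotes and 9.01% ± 0.33 in CKO zygotes, and 6.16% ± 0.65 and 5.55% ± 0.65 in the blastocysts of these genotypes. With the neighbour directly adjacent, at 100 bp, the share over 1776 tiles was 4.50% ± 0.08 (WT) and 4.84% ± 0.16 (CKO) in zygotes and 3.38% ± 0.56 and 2.84% ± 0.44 in blastocysts. Between these ends the share had no steady order: in CKO blastocysts it was 6.25% from 1100 to 5000 bp (128 tiles) and 2.61% from 5100 to 20000 bp (230 tiles). Among clustered tiles, those near a tile with 8 or more positions were the lowest. The 464 of them had 1.33% ± 0.0271 in WT zygotes and 1.57% ± 0.222 in CKO zygotes, against 2.69% and 3.29% in the other 1777 clustered tiles. A measured sperm-methylated neighbour did not go with higher levels. The 95 isolated tiles within 1000 bp of such a neighbour had 2.29% ± 2.03 in WT zygotes, against 4.12% ± 0.326 in the other 912. In CKO zygotes the means were 1.76% against 4.92%, and in blastocysts 0.410% against 3.25% (WT) and 0.244% against 3.15% (CKO). Of the 912, 599 had no other measured position within 1000 bp, so a methylated neighbour there could have gone unmeasured.

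**Figure D2:**
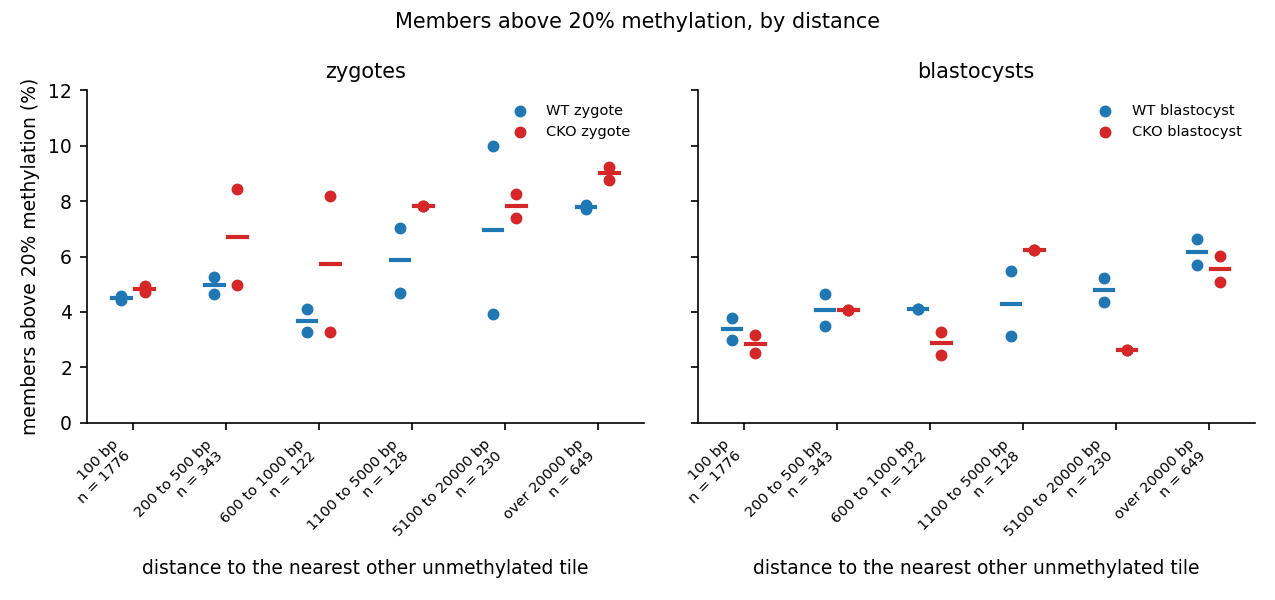
Share of sparse tiles above 20% methylation (vertical axis, %) in bins of distance to the nearest other sperm-unmethylated tile (horizontal axis, bp, with the number of tiles), for zygotes and blastocysts; points are libraries and short bars group means. In WT zygotes the share was 4.50% at 100 bp and 7.78% above 20000 bp.

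Tiles with more measured positions had lower levels in every group. Sperm-unmethylated tiles with 4 to 7 positions (2788 tiles) had a mean of 2.05% ± 0.0665 in WT zygotes and 2.17% ± 0.133 in CKO zygotes, and those with 8 or more (1475 tiles) 1.45% ± 0.0338 and 1.50% ± 0.0916. The classes also differed in sperm, at 1.70%, 0.694% and 0.276% from sparse to dense, and in depth, with medians per embryo library of 18 to 29, 33 to 55 and 51 to 85 counts. The part of either in the embryo difference was not tested. Within the sparse tiles the number of positions made little difference: WT zygotes had 3.15% ± 0.34 at 1 position, 2.66% ± 0.03 at 2 and 2.91% ± 0.11 at 3. For scale, the 4332 tiles with 1 to 3 positions that sperm had methylated at 80% or more were at 57.0% ± 0.256 (WT) and 69.4% ± 0.0635 (CKO) in zygotes.

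Tiles that reached a high value mostly did so in a single library. The number of tiles at 50% or more was 48 and 47 in the WT and 52 and 67 in the CKO zygote libraries, and 32 and 35 (WT) and 30 and 19 (CKO) at the later stage. Of the 3248 tiles, 201 (6.19%) reached 50% in any embryo library, and 139 of these did so in 1 library alone. The shares were 8.84% of isolated tiles (89, of which 62 in 1 library) and 5.00% of clustered tiles (112, of which 77 in 1 library). A further 29 tiles reached it in 2 libraries and 18 in 4 or more, and no tile did in all 8. Of the 105 tiles at 50% or more in either CKO zygote library, 14 were so in both, and for WT zygotes, WT blastocysts and CKO blastocysts this was 12 of 83, 8 of 59 and 6 of 43.

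Even so, a tile that was high in 1 library tended to be raised in the others. The 48 tiles at 50% or more in WT zygote replicate 1 had a mean of 24.5% in WT zygote replicate 2, and of 29.1% and 37.5% in CKO zygotes. In blastocysts these tiles had 20.7% and 17.2% (WT) and 17.7% and 15.7% (CKO). Over each choice of library, the mean in each of the others ranged from 15.4% to 37.9%, against 2.05% to 3.48% over all sparse tiles. The share of the chosen tiles at 0% in another library ranged from 14.3% to 57.9%, against 83.7% to 89.9% over all sparse tiles. The high values had a median of 18 counts, against 22 for the other values. Of the 207 high values with 2 or more positions, 183 (88.4%) had the same count at each position, so their positions were probably read by the same fragments. In 57 of the 207 (27.5%) a position at 20% or less stood beside the methylated ones.

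**Figure D3:**
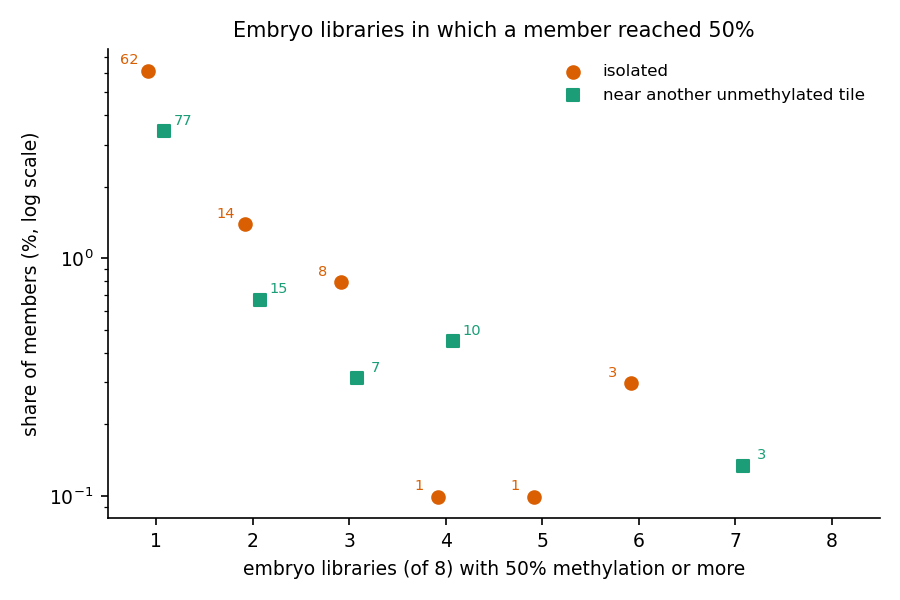
Share of isolated and of clustered sparse tiles (vertical axis, %, log scale) by the number of the 8 embryo libraries in which the tile was at 50% methylation or more (horizontal axis). Most of the 201 such tiles, 139, were high in 1 library, and 18 were high in 4 or more.

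The tiles with the highest means over the 8 libraries varied widely among libraries. Of the tiles with 10 or more counts in every library, the clustered chr5:145425901-145426000 had the highest mean, 71.3%, with 3.57% and 4.88% in sperm. Zygote levels were 100% and 67.6% (WT) and 100% and 90.8% (CKO), and blastocyst levels 57.1% and 63.5% (WT) and 11.1% and 80.0% (CKO). Every library except CKO blastocyst replicate 1 was above 50%. The isolated tile chr7:90943001-90943100, whose nearest sperm-unmethylated tile was 97500 bp away, had a mean of 64.6%. Its libraries were at 71.4% and 88.9%, 66.7% and 86.1%, 66.7% and 20.0%, and 83.3% and 33.3% in the same order, so that each blastocyst group had a high and a low library.

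Adjacent tiles chr8:34594801-34594900 and chr8:34594901-34595000 were both high, with means of 65.2% and 55.5%. The first had 33.3% and 54.5% (WT) and 75.0% and 69.0% (CKO) in zygotes and 76.9% and 100% (WT) and 50.0% and 62.5% (CKO) in blastocysts, and was the 1 tile at 50% or more in all 4 blastocyst libraries. The second had 14.8% and 18.2%, 41.7% and 88.1%, 76.9% and 83.3%, and 75.0% and 45.8%. Being next to each other, the pair may share reads and is not independent. In clustered tile chr16:55473701-55473800 the level, a mean of 43.5%, lay at a single cytosine. Position 55473758 had 33.3% in pooled sperm and 69.4% in pooled embryos, while position 55473774 had 0% and 6.72%.

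All 4 zygote libraries were at 50% or more in 6 of the 3248: chr4:134953301-134953400, chr5:145425901-145426000, chr5:149762101-149762200, chr7:90943001-90943100, chr12:112231301-112231400 and chr15:73670401-73670500. Of these, 2 were isolated, those at chr5:149762101 and chr7:90943001. They were chosen after their values were seen.

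Zygotes of the 2 genotypes were compared to ask whether lack of maternal Tet3 goes with a different level at tiles that were low in sperm. The mean over sparse tiles was higher in CKO zygotes by 0.573 ± 0.150 points (SD of the difference, 2 libraries against 2), and a gap of 0.448 points separated the CKO libraries from the WT libraries. The difference was 0.681 ± 0.677 points in isolated tiles, where the libraries were separated by 0.00397 points, and 0.524 ± 0.252 points in clustered tiles. Where both sperm libraries were at 0%, it was 0.313 points over all sparse tiles, and in the 483 isolated ones among them 0.120 ± 0.654 points with overlapping libraries. Over all 3248 tiles it was above 0 on 15 of 19 autosomes and below 0 on 4, from -0.528 to 1.75 points. In tiles with 4 to 7 positions it was 0.119 ± 0.149 points and in those with 8 or more 0.0460 ± 0.0976 points, and in both of these classes the libraries overlapped. At the sperm-methylated sparse tiles it was 12.4 ± 0.264 points.

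Tile by tile, little of this passed a test. Most sparse tiles (66.6%) had equal levels in both zygote groups. CKO was higher in 610 (18.8%) and lower in 474 (14.6%), against 41.5% and 23.8% over all 14811 tiles, with a median difference of 0 in both. The edgeR quasi-likelihood test with Benjamini-Hochberg adjustment over all tiles called 0 sparse tiles between the zygote groups, and 0% of all tiles; the likelihood ratio test and limma called 0 sparse tiles too, against 0.0338% and 0% of all tiles. At an unadjusted p below 0.05 the quasi-likelihood test gave 25 sparse tiles (0.77%), 15 higher (0.462%) and 10 lower (0.308%) in CKO. The background was 4.08% of all tiles, 3.51% higher and 0.574% lower. At this threshold the likelihood ratio test gave 131 of the 3248 and limma 114, so the count depends on the test. Their shares over all tiles are not given here. CKO libraries lay wholly above WT libraries in 99 sparse tiles (3.05%) and wholly below in 49 (1.51%), against 14.1% and 4.53% of all tiles. The quasi-likelihood shares at the unadjusted threshold and the shares of separated tiles were below the background in each case. Tiles at 0% in both groups cannot count toward either.

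The tile with the smallest p was the clustered chr3:122970601-122970700. Sperm had 0 methylated of 102 and of 79 counts there. WT zygotes had 4 of 43 (9.30%) and 4 of 26 (15.4%), and CKO zygotes 29 of 43 (67.4%) and 46 of 63 (73.0%). The CKO and WT libraries were far apart and each pair agreed closely, a difference of 57.9 points with an unadjusted p of 0.00558 and an adjusted p of 0.797 (edgeR), so it did not pass. Blastocysts were low in both genotypes, at 11.8% and 17.7% in WT and 13.8% and 0% (0 of 33) in CKO.

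In zygotes, though not in blastocysts at both, similar values were seen at 2 isolated tiles, neither of which passed. At chr7:134377401-134377500, WT zygotes had 0 of 14 and 0 of 26 counts methylated, and CKO zygotes 10 of 14 (71.4%) and 26 of 50 (52.0%). The WT counts allow up to 21.4% and 11.5% (3 counts of the total), and more if the 2 positions share reads. The difference was 61.7 points (edgeR adjusted p 0.988). Blastocysts had 0% in 3 libraries and 13.6% in CKO replicate 2. At chr7:51920701-51920800, WT zygotes had 10.0% and 11.5% and CKO zygotes 58.3% and 61.1%, whereas WT blastocysts had 37.5% and 65.5% and CKO blastocysts 4.55% and 0%. The order of the genotypes was thus opposite at the 2 stages, by -98.2 points as a difference of differences, with an unadjusted p of 0.00133 and an adjusted p of 1 for the interaction (edgeR).

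**Figure D4:**
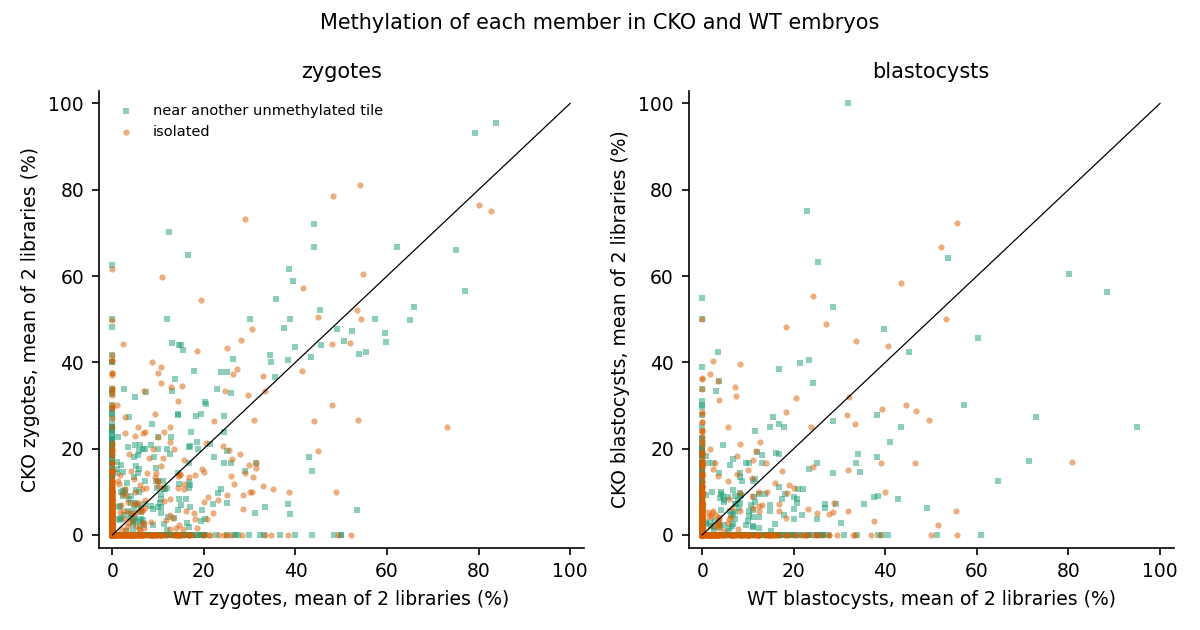
Methylation level of each sparse tile in CKO (vertical axis, %, mean of 2 libraries) against WT (horizontal axis, %, mean of 2 libraries), in zygotes and in blastocysts; each point is 1 isolated or clustered tile and the line marks equal levels. Points lie on both sides of the line, 610 above and 474 below in zygotes and 447 above and 477 below in blastocysts.

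In blastocysts the order of the genotype means was the opposite. CKO minus WT was -0.244 ± 0.218 points, with libraries separated by 0.0411 points. It was -0.103 points without WT blastocyst replicate 1 and -0.385 points without WT blastocyst replicate 2. The libraries overlapped in the 1158 tiles with 3 positions (0.00744 ± 0.223 points) and the 921 with 1 position (-0.278 ± 0.360 points). In the 1169 tiles with 2 positions they were separated (-0.466 ± 0.346 points). The difference was -0.106 ± 0.0656 points in isolated and -0.306 ± 0.291 points in clustered tiles. Over all sparse tiles it was above 0 on 7 autosomes and below 0 on 12. At the sperm-methylated sparse tiles CKO was higher by 8.91 ± 0.660 points, so the sparse unmethylated tiles did not follow them in direction. CKO was higher in 447 sparse tiles (13.8%) and lower in 477 (14.7%), against 37.1% and 24.9% of all tiles.

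No sparse tile was called between blastocyst groups by edgeR's quasi-likelihood test, the likelihood ratio test or limma (0 in each, and 0% of all tiles). At an unadjusted p below 0.05 the quasi-likelihood test gave 14 (0.431%), 2 higher (0.0616%) and 12 lower (0.369%) in CKO, against 2.62% of all tiles, 2.17% higher and 0.446% lower. The lower share was near its background. With the likelihood ratio test 91 of the 3248 sparse tiles passed this threshold and with limma 84, and their shares over all tiles are not given here. CKO libraries lay wholly above WT libraries in 67 sparse tiles (2.06%, background 13.1%) and wholly below in 79 (2.43%, background 5.98%).

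Single tiles differed in both directions. The largest separated difference among tiles with 10 or more counts in every library was at the clustered chr18:37107701-37107800. There CKO blastocysts had 15 of 15 counts methylated in both libraries and WT blastocysts 2 of 18 (11.1%) and 22 of 42 (52.4%). The tile's 3 positions each held 30 counts over the pooled blastocyst libraries, so they probably share reads, and 15 counts stand for fewer reads. CKO was higher by 68.3 points (edgeR adjusted p 1), and zygotes had 43.9% and 46.7% in WT and 37.5% and 66.7% in CKO. The clustered chr16:55473701-55473800 was also higher in CKO, at 100% and 50.0% against 17.9% and 27.9% in WT, by 52.1 points (adjusted p 1). The 2 tiles with the smallest p were isolated and higher in WT. At chr10:76535701-76535800, WT blastocysts had 15 of 36 (41.7%) and 47 of 68 (69.1%) counts methylated, and CKO blastocysts 0 of 58 and 5 of 46 (10.9%). The libraries did not overlap, and the difference of -50.0 points had an unadjusted p of 0.00238 and an adjusted p of 1 (edgeR). Zygotes there had 16.7% and 13.6% in WT and 28.8% and 40.0% in CKO. At chr8:35879601-35879700, WT blastocysts had 24 of 66 (36.4%) and 18 of 48 (37.5%) and CKO blastocysts 0 of 27 and 0 of 69 (up to 11.1% and 4.35%), while zygotes of both genotypes were at 0% to 1.11%. The difference of -36.9 points did not pass (adjusted p 1, edgeR). The isolated tiles chr7:64664101-64664200 (100% and 61.5% in WT, 13.6% and 20.0% in CKO) and chr16:45533201-45533300 (47.1% and 64.3% in WT, 0% in both CKO libraries) were also higher in WT.

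The change of the genotype difference between stages was tested as an interaction for each tile. The edgeR quasi-likelihood test called 0 sparse tiles, against 0.00675% of all tiles. With the likelihood ratio test and with limma the calls were 0 too, against 0.0135% and 0% of all tiles. At an unadjusted p below 0.05 the quasi-likelihood test gave 15 (0.462%), against 2.14% of all tiles. At this threshold the likelihood ratio test gave 101 and limma 90, and their shares over all tiles are not given here. In 54.3% of sparse tiles the difference of differences was exactly 0. WT at chr7:134377401-134377500 and CKO at chr8:35879601-35879700 were at 0% at both stages. There the quasi-likelihood test gave an unadjusted p of 0.9999 for -54.9 and for -36.4 points, so 0 calls say little about such tiles.

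The comparison of stages asks whether what methylation the zygote had was kept to the blastocyst. Sparse tiles were lower in blastocysts, by -0.529 ± 0.248 points in WT and by -1.35 ± 0.0920 points in CKO, with no overlap between stages in either genotype. In isolated tiles the differences were -0.965 ± 0.492 and -1.75 ± 0.470 points, and in clustered tiles -0.333 ± 0.260 and -1.16 ± 0.284 points. The WT level was lower in blastocysts at 551 sparse tiles and higher at 433 (13.3%), with 69.7% equal, against 49.6% lower and 14.3% higher among all tiles. The CKO level was lower at 663 (20.4%) and higher at 398 (12.3%), against 52.8% and 12.5% of all tiles. All 4 zygote libraries lay above all 4 blastocyst libraries in 20 sparse tiles (0.616%, background 10.1%) and below them in 2 (0.0616%, background 0.054%).

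Of the 5 tiles with the largest separated fall among those with 10 or more counts in every library, 4 were clustered, near the share of clustered tiles among all 1432 such tiles (69.8%). At chr8:122129001-122129100, zygotes had 37.9% and 41.7% in WT and 53.8% and 33.3% in CKO, and blastocysts had 0 methylated of 29, 102, 20 and 21 counts, which allow up to 10.3%, 2.94%, 15.0% and 14.3%. The mean difference between stages was 41.7 points, and all 4 blastocyst libraries were at 0%. At the isolated chr4:153455201-153455300 the zygote levels were 24.1% and 53.1% in WT and 11.8% and 8.33% in CKO, and all blastocyst libraries were again at 0%. Tiles chr7:29063301-29063400, chr4:123020301-123020400 and chr15:78745101-78745200 were lower in blastocysts by 42.2, 37.4 and 23.5 points.

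Both tiles in which blastocysts exceeded all zygote libraries had fewer than 10 counts in a library and were named after their values were seen. Clustered chr1:120961401-120961500 was at 0% in all 4 zygote libraries, with 62, 26, 6 and 14 counts, and at 34.2% and 80.0% in WT and 38.9% and 21.4% in CKO blastocysts. Isolated chr5:121081401-121081500 was at 0% in all zygote libraries, with 15 to 30 counts. It was at 53.3% and 45.6% in WT blastocysts and at 16.7% (of 6 counts) and 36.7% (of 60) in CKO blastocysts. Sperm had 3.70% and 0% at the first and 0% in both libraries at the second. Methylation was thus detected at both tiles in every blastocyst library and in no zygote library at these depths. The 6 counts of CKO zygote replicate 1 at the first tile say little, as do the 6 of CKO blastocyst replicate 1 at the second.

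Between stages, edgeR's quasi-likelihood test called 1 sparse tile in WT, against 0.196% of all tiles, and 0 in CKO, against 0.398%. At an unadjusted p below 0.05 this test gave 28 in WT (0.862%, background 9.76%) and 26 in CKO (0.8%, background 10.5%). The likelihood ratio test gave 118 and 130 at that threshold and limma 101 and 121, with shares over all tiles not given here. After adjustment the likelihood ratio test called 3 sparse tiles in WT, against 2.36% of all tiles, and in CKO 1, against 2.33%. limma called 0 sparse tiles in both, and 0% of all tiles. The 3 were chr1:120961401-120961500 (adjusted p 0.0292), chr8:122129001-122129100 (0.0373) and the isolated chr14:78848401-78848500 (0.0499), which was at 0% in both WT zygote libraries and at 21.4% and 28.6% in the WT blastocyst libraries.

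The tile called in WT was the clustered chr12:112231301-112231400, named after its values were seen because 1 library held only 6 counts. Sperm had 4 of 111 (3.60%) and 8 of 63 (12.7%) counts methylated. WT zygotes had 91 of 102 (89.2%) and 25 of 36 (69.4%), CKO zygotes 6 of 6 and 75 of 87 (86.2%), WT blastocysts 3 of 33 (9.09%) and 11 of 78 (14.1%), and CKO blastocysts 8 of 18 (44.4%) and 1 of 27 (3.70%). All zygote libraries were high and all blastocyst libraries lower. In WT the level fell by 67.7 points, from 79.3% ± 14.0 to 11.6% ± 3.54 (SD, n = 2; edgeR adjusted p 0.0376). The call was lost with the likelihood ratio test (adjusted p 0.132), limma (0.156) and a dispersion common to all tiles (1). It was also lost without WT zygote replicate 1 (0.559), WT blastocyst replicate 1 (0.291) or 2 (0.834), or CKO blastocyst replicate 1 (0.0572) or 2 (0.0637), which share the estimate of the spread.

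In CKO the tile nearest to a call was the isolated chr4:118109301-118109400. Zygotes had 8.33% and 100% in WT and 62.1% and 100% in CKO, and blastocysts 8.33% and 48.6% in WT and 0% and 10.7% in CKO. Both CKO zygote libraries lay above both CKO blastocyst libraries, while the WT libraries overlapped. The CKO difference was -75.7 points, with an adjusted p of 0.0592 (edgeR). It passed with the likelihood ratio test (0.0406), when 10 counts were required in every library (0.0468) and without CKO zygote replicate 1 (0.0407). It did not pass with limma (0.223), with a common dispersion (1), without CKO zygote replicate 2 (0.561), without CKO blastocyst replicate 1 (0.591) or 2 (0.382), or without each WT library in turn (0.0505 to 0.1).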

How the data were processed

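RRBS of 10 libraries was analysed. The deposited files list, for each cytosine position (mm9), 2 read counts (methylated, unmethylated) and the percent methylation that the authors obtained from them. The submitters' processing notes name Bismark 0.10.1 and Trim Galore, with no settings given in the sources used here. Counts were summed over 100-bp tiles (Python 3.11.15), and levels were recomputed from the deposited counts. The sparse tiles, their classes and the comparisons were chosen with earlier results of these data known. Group values are means ± SD over 2 libraries of the unweighted mean over tiles. No test was made on these means, because the tiles were chosen on related results and 2 libraries against 2 limit any such test.

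All 14811 autosomal tiles with at least 5 counts in each embryo library entered 1 fit in edgeR 4.0.16 (R 4.3.3). It was a quasi-likelihood F-test on both kinds of count, with 1 depth term for each library and a negative binomial dispersion of 0, so that the model is quasi-binomial. P-values were adjusted by Benjamini-Hochberg over all these tiles, with a threshold of 0.05. The method was also run on simulated counts, but the outcome is not given here, so that run does not show how much 0 calls mean. Named tiles had at least 10 counts in every embryo library and were, for each of the 5 comparisons, the called tiles or the 2 with the smallest p. Added to these were the 10 with the highest embryo mean, 5 per direction with separated stages, 4 per stage with the largest separated genotype difference, and the 2 nearest to the sperm threshold on each side. Alternatives were a minimum of 10 counts, pooled counts, stricter sperm thresholds, other distances, the likelihood ratio test, a common dispersion, limma 3.58.1, a replicate block and leaving out each library. Tiles were not assigned to genes and no sequence is shown, since the gene and promoter tables used here are of GRCm38.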

Additional observations from a re-analysis of the deposited data

Results flagged for a closer look

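The difference between CKO and WT embryos had opposite signs at the 2 stages. Taken over all sparse tiles, the libraries of the genotypes were separated at both, but in several classes of tiles the blastocyst libraries overlapped. Over all sparse tiles CKO minus WT came to 0.573 points at the zygote stage and -0.244 points at the blastocyst stage. In isolated tiles it was 0.681 and -0.106 points, and in clustered tiles 0.524 and -0.306 points. The blastocyst value was -0.103 points without WT blastocyst replicate 1 and -0.385 points without WT blastocyst replicate 2. It was 0.00744 points with overlapping libraries in the 1158 tiles with 3 positions, and 1.25 points in the 128 tiles that lay 1100 to 5000 bp from another sperm-unmethylated tile. Blastocyst libraries also overlapped in the 921 tiles with 1 position (-0.278 ± 0.360 points) and the 1776 with a neighbour at 100 bp (-0.265 ± 0.305 points). They were separated in the 1169 tiles with 2 positions (-0.466 ± 0.346 points). With a minimum of 10 counts the blastocyst value was -0.192 ± 0.372 points. The difference between the stages was not tested for these means. For single tiles the interaction test (edgeR) called 0 of 3248.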

How the results depend on the processing

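As means over libraries, the 4 differences between groups and the difference between isolated and clustered tiles kept their direction under every alternative run. CKO minus WT zygotes (0.573 points) was 0.388 from pooled counts, 0.409 with 10% or less in sperm, 0.313 with 0% in sperm and 0.468 to 0.677 when a library was left out. CKO blastocysts minus zygotes (-1.35) was -1.20, -0.952, -0.710 and -1.41 to -1.28 in the same order. CKO minus WT blastocysts ranged from -0.385 to -0.103 and WT blastocysts minus zygotes from -0.670 to -0.388 when a library was left out. Isolated minus clustered in WT zygotes (1.53) was 0.982 with 10% or less in sperm, 0.326 ± 0.565 with 0%, and 1.19 to 1.88 without a library. In WT blastocysts (0.902) it was 0.646, 0.0679 ± 0.585 and 0.764 to 1.04, with 1.25 from pooled counts and 1.17 with a minimum of 10 counts. With 0% in sperm the isolated minus clustered difference was smaller than its SD in both groups, so its direction there is not firm. The cause of these shifts was not tested. Requiring that no single sperm position exceed 20%, chosen after seeing the data, gave 0.542, -0.271, -0.467 and -1.28 points for the 4 differences, and 1.28 and 0.830 points for isolated minus clustered.

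The WT stage comparison called 1 sparse tile, against 0 with a minimum of 10 counts (the tile has 6 in 1 library), 3 with the likelihood ratio test, 0 with a common dispersion, 0 with limma and 0 to 1 without a library. The CKO stage comparison called 0, against 1 with a minimum of 10 counts, 1 with the likelihood ratio test and 0 to 1 without a library. With a replicate block these counts were 0 and 1. The labels share replicate numbers but state no shared day or batch, and the deviations of same-numbered libraries correlated at -0.0222 to 0.0467, so the numbers were not taken as pairs. With 18 to 29 counts per tile and library, single-tile differences are imprecise.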

Other observations

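On the X chromosome, which the rule left out, 5 tiles met its other parts. Their mean level was 3.27% ± 1.96 in sperm (SD, n = 2). Zygotes had 9.60% ± 5.86 (WT) and 15.7% ± 0.99 (CKO), and blastocysts 6.44% ± 4.22 (WT) and 18.9% ± 0.97 (CKO). CKO was the higher genotype at both stages, over 5 tiles only and untested.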
